A study of Homo sapiens with 12 samples.

Results

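The genes described here encode the enzymes and carriers that build, sulphate, trim and degrade heparan sulphate, the chain that syndecan-3 (SDC3) carries. They were 38 genes chosen by symbol, and all 38 had a row among the 58051 genes of the count table. Counts were high enough to test 33 of them, out of 17119 genes tested in all. Another 3 had a few counts without reaching the test, and 2 had no count in any library. Messenger RNA had been sequenced from THP-1, a human leukaemia line of monocytic origin that becomes macrophage-like under phorbol ester (PMA). Every culture, controls included, had been differentiated with 20 ng/ml PMA for 24 h and then given fresh medium. Recombinant human interferon gamma (IFN-γ), a cytokine that activates macrophages, was added a day later to the treated ones. The 4 groups of 3 libraries were SDC3-knockout cells with IFN-γ, SDC3-knockout cells without it, wild-type cells with IFN-γ and wild-type cells without it. The knockout had been made with CRISPR/Cas9. How much IFN-γ was used and for how long, how many edited lines there were and whether replicates were separate cultures are not stated, so a p-value reflects only the scatter among the sequenced libraries, which may be technical.

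Heparan sulphate is built in the Golgi on serines of a core protein, first as a short linker and then as a long chain of alternating glucosamine and glucuronic acid. Enzymes then replace acetyl by sulphate groups on the glucosamine, turn part of the glucuronic into iduronic acid and add sulphate at 2-O, 6-O and, rarely, 3-O positions. At the cell surface, sulphatases remove 6-O groups and heparanase cuts the chain, and lysosomal enzymes take it apart from its end. The pattern of sulphate groups sets which chemokines, cytokines and growth factors a chain binds, IFN-γ among them.

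The libraries held 23616738 to 29426415 assigned counts, and a floor of 3 counts was 0.0925 to 0.130 CPM, that is counts scaled to a fixed library size with TMM factors. SDC3 itself measured 237 to 244 CPM in knockout cells with IFN-γ, against 572 to 590 CPM in wild-type cells with IFN-γ. Without IFN-γ it measured 43.9 to 49.9 CPM in knockout cells, against 196 to 252 CPM in wild-type cells. The target transcript was thus lower in both knockout groups and still present in them, and its IFN-γ response differed between the genotypes. All 9 monocyte and macrophage markers on a fixed list were tested, and their summed level was 3954 to 4995 CPM. CD68 alone among them stood near 0, at 0.0720 to 0.648 CPM, and 85.8% of its exon bases are shared with other genes. The sum hides opposite shifts of single markers. LYZ measured 229 to 231 CPM in treated and 867 to 911 CPM in untreated knockout cells. Wild-type cells had 522 to 551 CPM of it treated and 1236 to 1346 CPM untreated. FCGR1A measured 411 to 416 CPM in treated and 47.2 to 48.6 CPM in untreated knockout cells. For wild-type cells this was 310 to 318 CPM and 42.9 to 45.3 CPM. A list of 5 granule genes of immature myeloid cells (MPO, ELANE, PRTN3, CTSG, AZU1) moved with both factors. Its summed level was 83.7 to 97.5 CPM in knockout cells with IFN-γ and 192 to 215 CPM without it, against 24.4 to 26.1 CPM in wild-type cells with IFN-γ and 124 to 133 CPM without it. Whether this bears on the heparan sulphate genes was not tested. In such bulk libraries, fewer cells of a type and less RNA per cell cannot be told apart. Defining markers of T cells (CD2), B cells (MS4A1), epithelium (KRT19) and erythroid cells (HBB) had no count.

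Between genotypes, about as many heparan sulphate genes were higher as were lower, at shares near those of all genes. With IFN-γ, 9 of the 33 tested members were higher and 10 lower in knockout than in wild-type cells, by edgeR's quasi-likelihood test at a Benjamini-Hochberg adjusted p under 0.05. Of all tested genes 47.2% were called in that comparison, 22.9% higher and 24.3% lower. The members' median log2 fold change was -0.02, against -0.01 over all genes. Without IFN-γ, 10 members were higher and 11 lower in the knockout, where 50.1% of all genes were called (25.4% higher, 24.8% lower). The median was 0.03 for the members and 0.01 for all genes. Calls were higher for 7 genes in both settings (EXT2, FAM20B, GUSB, IDUA, PAPSS1, SGSH, SLC35B3) and lower for 8 (B3GALT6, EXTL1, GLCE, HS2ST1, HS3ST3A1, HS6ST1, SULF2, UXS1). None was called in opposite directions, and 8 were called in neither. Of the 8 lower genes, 3 add O-linked sulphate and SULF2 removes it, and 3 of the 7 higher ones are lysosomal. The share of all genes called alike in both settings was not computed. These counts, and the steps they fall in, thus have no baseline here.

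**Figure D1:**
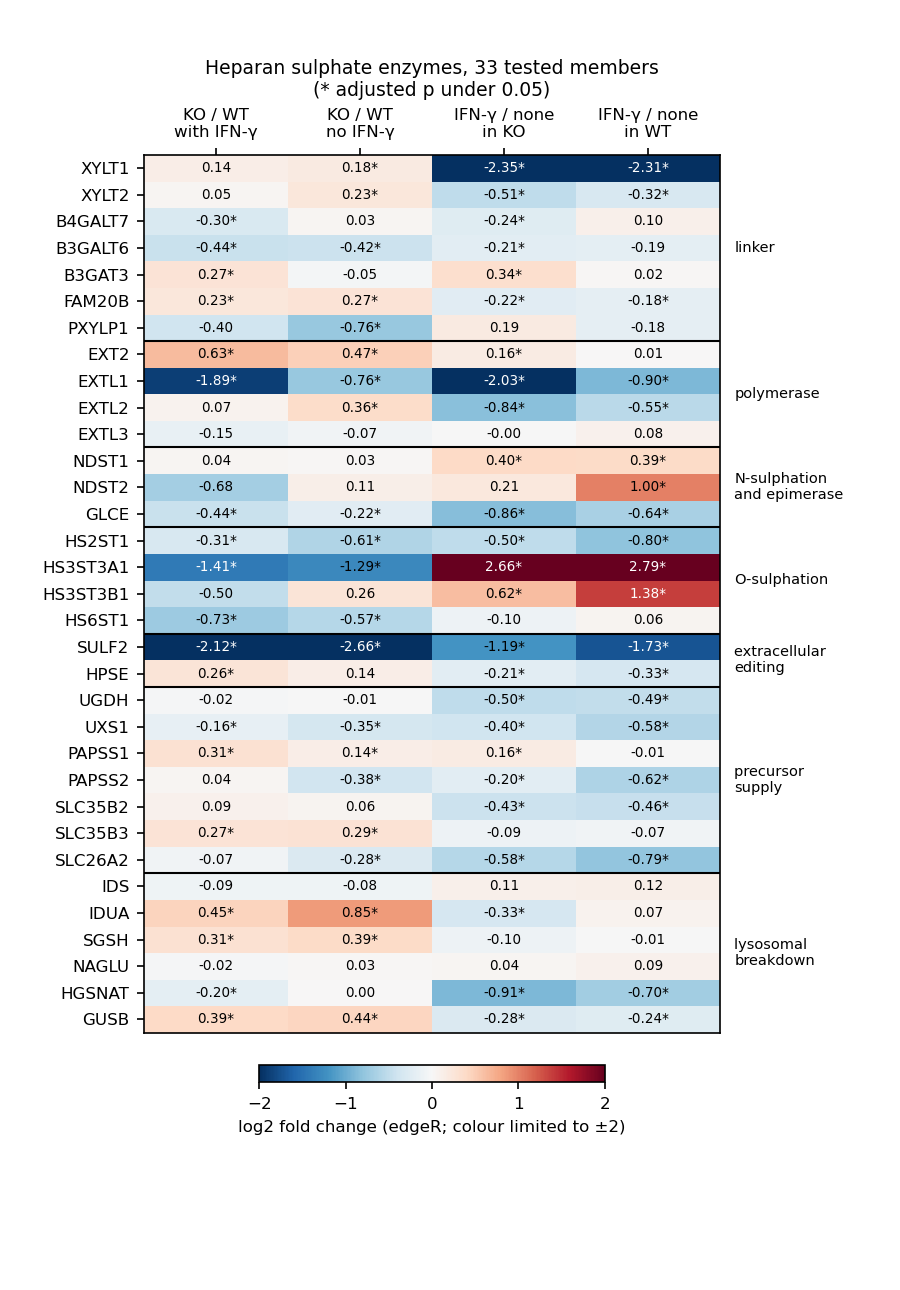
Log2 fold changes of the 33 tested members (rows, by step) in the 4 comparisons of 2 groups (columns), with each value printed and an asterisk at an adjusted p under 0.05. Blue cells are lower and red cells higher in the first-named group, and SULF2 is the darkest blue cell of both genotype columns.

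The IFN-γ responses leaned downward. In knockout cells 6 members were higher and 19 lower with IFN-γ than without, where 61.1% of all genes were called (29.2% higher, 31.8% lower). In wild-type cells 4 were higher and 16 lower, where 56.5% of all genes were called (28.6% higher, 27.9% lower). Median log2 fold changes of the members were -0.21 in knockout and -0.18 in wild-type cells, against -0.05 and -0.02 over all genes. Both responses are measured on libraries whose composition changed, and the scaling matters. With library totals in place of the TMM scaling used here, the median of all tested genes shifted to -0.35 in knockout and -0.27 in wild-type cells. The share of calls that were higher then fell to 23.4% and 25.1%, against 47.9% and 50.7% under TMM. The heparan sulphate counts became 2 higher and 27 lower in knockout cells and 3 higher and 25 lower in wild-type cells. Lower in both genotypes were 16 members (XYLT1, XYLT2, FAM20B, EXTL1, EXTL2, GLCE, HS2ST1, SULF2, HPSE, UGDH, UXS1, PAPSS2, SLC35B2, SLC26A2, HGSNAT and GUSB), and HS3ST3A1, HS3ST3B1 and NDST1 were higher in both. EXTL3, IDS and NAGLU were not called in any of the 4 comparisons. The shares of all genes called alike in both genotypes, or in none of the 4 comparisons, were not computed, so these counts lack a baseline. Each untreated group is the baseline of 1 response and part of 1 genotype comparison, so the comparisons share libraries.

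The untested members numbered 5. EXT1, which forms the chain-lengthening polymerase with EXT2, had 34 counts over all libraries, in 8 of the 12. They were 4, 2 and 4 counts in knockout cells with IFN-γ and 0, 6 and 8 in untreated knockout cells. Wild-type cells had 2, 0 and 2 counts with IFN-γ and 6, 0 and 0 without it. Per kilobase of exon this came to 4.08 counts for EXT1, against 2950 counts for its partner EXT2. Neither gene shares exon bases with another gene. Of the 3 neighbours looked at on each side on chromosome 8, most were also low. RAD21-AS1 measured 0.0617 to 0.742 CPM, AARD 0 to 0.872 CPM, CCN3 0 to 1.07 CPM and ENPP2 0 to 3.04 CPM. MED30, 0.254 Mb away, measured 1.68 to 4.17 CPM and TAF2, 1.62 Mb away, 33.8 to 43.4 CPM. HS3ST1, which makes the 3-O-sulphated site that antithrombin binds, had 2 counts in 1 library of the knockout with IFN-γ, 4 counts in 1 untreated knockout library and 2 counts in each of 2 untreated wild-type libraries. HS6ST2, a 6-O-sulphotransferase, had 2 counts in 1 knockout library with IFN-γ and 6 in 1 wild-type library with IFN-γ. HS3ST2 and SULF1 had 0 counts in all 12 libraries, below the floor of 3 counts (0.0925 to 0.130 CPM a library). Mates were counted separately, so 1 fragment can give 2 counts, and the level that 0 counts allow can exceed this floor.

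Levels of different genes are compared here in TPM (transcript shares of a fixed total), which divide counts by exon length. Averaged over all libraries, the lysosomal glucuronidase GUSB (246 TPM), the sulphate-donor synthase PAPSS1 (245 TPM), the sulphate-donor carrier SLC35B2 (174 TPM) and the N-sulphotransferase NDST1 (117 TPM) had the highest levels. The order varied by group: GUSB was above PAPSS1 only in untreated knockout cells, and the lysosomal sulphatase SGSH was above NDST1 in untreated knockout cells (144 against 112 TPM) and level with it in untreated wild-type cells (111.7 against 111.5 TPM). Chain-modifying enzymes with strong changes stood much lower, with HS2ST1 at 47.6 TPM, EXT2 at 36.0 TPM, SULF2 at 9.65 TPM and HS3ST3A1 at 3.22 TPM.

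The linker genes attach xylose, a pair of galactoses and glucuronic acid to the core protein. With IFN-γ, 2 of the 7 were higher and 2 lower in knockout than in wild-type cells, and without it 3 were higher and 2 lower. Of all genes 22.9% were higher and 24.3% lower with IFN-γ, and 25.4% and 24.8% without it. XYLT1, one of the xylosyltransferases that start such chains, had the largest fall with IFN-γ among the members. It measured 20.2, 19.3 and 16.4 CPM in knockout cells with IFN-γ and 96.7, 93.0 and 95.7 CPM in knockout cells without it. Wild-type cells had 17.995, 16.99 and 15.8 CPM with IFN-γ and 81.4, 85.9 and 84.2 CPM without it. The treated and untreated libraries were far apart in both genotypes, while the genotypes overlapped with IFN-γ and stood apart without it (log2 fold change 0.18, SE 0.06, edgeR adjusted p = 0.0069). The log2 fold change with IFN-γ was -2.35 (SE 0.06, edgeR adjusted p = 4.2e-25) in knockout and -2.31 (SE 0.07, edgeR adjusted p = 1.5e-24) in wild-type cells. The difference of these responses was -0.04 (95% interval -0.23 to 0.14). XYLT1 provided 5.05% of the summed linker TPM in knockout cells with IFN-γ and 20.2% without it, against 4.63% in wild-type cells with IFN-γ and 18.2% without it.

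The other xylosyltransferase, XYLT2, moved less. Knockout cells had 23.5, 22.0 and 21.3 CPM with IFN-γ and 30.9, 34.1 and 29.9 CPM without it. Wild-type cells had 22.0, 21.7 and 21.0 CPM with IFN-γ and 24.4, 29.6 and 26.7 CPM without it. XYLT2 fell with IFN-γ by 0.51 on the log2 scale in knockout cells (SE 0.08, edgeR adjusted p = 7.3e-07) and by 0.32 in wild-type cells (SE 0.08, edgeR adjusted p = 0.00063). Its rise of 0.23 in untreated knockout over untreated wild-type cells was lost without replicate 2 of the untreated knockout (0.17, edgeR adjusted p = 0.087) or replicate 1 of the untreated wild type (0.17, edgeR adjusted p = 0.07).

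PXYLP1, which removes the phosphate from the linker xylose, was one of the lowest tested members. It had 1.46, 2.12 and 2.87 CPM in knockout cells with IFN-γ, against 2.77, 2.96 and 2.78 CPM in wild-type cells with IFN-γ. Without IFN-γ knockout cells had 1.73, 1.88 and 2.07 CPM, against 2.67, 3.30 and 3.66 CPM in untreated wild-type cells. The untreated groups did not overlap, and PXYLP1 fell by 0.76 on the log2 scale (SE 0.21, edgeR adjusted p = 0.0027). With IFN-γ 1 knockout library lay within the wild-type range, and the log2 fold change was -0.40 (edgeR adjusted p = 0.14). Without that library, replicate 3, it was -0.66 (edgeR adjusted p = 0.021).

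Of the other linker genes, the galactosyltransferase B3GALT6 was lower in the knockout with IFN-γ (log2 fold change -0.44, SE 0.09, edgeR adjusted p = 6.5e-05) and without it (-0.42, SE 0.08, edgeR adjusted p = 6.1e-05). FAM20B, the kinase that phosphorylates the linker xylose, was higher in both settings, at 0.23 (edgeR adjusted p = 0.0025) and 0.27 (edgeR adjusted p = 0.00033). B4GALT7, which adds the inner galactose, was lower with IFN-γ at -0.30, a call lost without replicate 2 of the knockout with IFN-γ (-0.21, edgeR adjusted p = 0.098). B3GAT3, which adds the glucuronic acid, was higher with IFN-γ at 0.27 although the libraries overlapped. That call was lost without replicate 1 of the treated knockout (0.18, edgeR adjusted p = 0.12) or replicate 3 of the treated wild type (0.20, edgeR adjusted p = 0.088), or with library totals (0.19, edgeR adjusted p = 0.081). IFN-γ lowered B4GALT7 and B3GALT6 in knockout cells by 0.24 and 0.21 on the log2 scale. The B4GALT7 call was lost without replicate 2 or 3 of the treated or replicate 1 or 2 of the untreated knockout (-0.24 to -0.15, edgeR adjusted p from 0.057 to 0.23) or with DESeq2 (adjusted p = 0.076). The B3GALT6 call was lost without any 1 treated knockout library or replicate 1 or 2 of the untreated knockout (-0.21 to -0.17, edgeR adjusted p from 0.063 to 0.14), with DESeq2 (adjusted p = 0.096) or with no low-count filter (edgeR adjusted p = 0.062). FAM20B was lower with IFN-γ in both genotypes, and its wild-type call was lost without replicate 1 of the untreated wild type (-0.14, edgeR adjusted p = 0.066). For B4GALT7 the difference of the IFN-γ responses was not called with all libraries under TMM. Leaving out replicate 1 of the treated knockout gave a call (-0.40, edgeR adjusted p = 0.049), as did library totals (-0.38, edgeR adjusted p = 0.044). So did leaving out replicate 2 of the untreated wild type (-0.44, edgeR adjusted p = 0.017).

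In the polymerase step 1 of 4 tested genes was higher and 1 lower in the knockout with IFN-γ, and 2 were higher and 1 lower without it. The shares of all genes were 22.9% higher and 24.3% lower with IFN-γ, and 25.4% and 24.8% without it. EXT2, whose protein lengthens the chain together with EXT1, was higher in every knockout library than in any wild-type library. It had 60.0, 59.9 and 59.7 CPM in knockout cells with IFN-γ, against 35.5, 39.2 and 41.5 CPM in wild-type cells with IFN-γ. Untreated knockout cells had 54.1, 52.1 and 54.0 CPM, against 40.8, 37.9 and 36.8 CPM in untreated wild-type cells. EXT2 lies at chr11:44095549-44245429 (hg38, plus strand), and the median log2 fold change of its 20 nearest tested genes was -0.12 with IFN-γ and -0.07 without it, where EXT2 itself had 0.63 and 0.47 (edgeR adjusted p = 4.4e-08 without IFN-γ). EXT2 provided 73.1% of the summed polymerase TPM in knockout cells with IFN-γ and 63.7% without it, against 61.6% in wild-type cells with IFN-γ and 57.4% without it. Its rise of 0.16 with IFN-γ in knockout cells (SE 0.06, edgeR adjusted p = 0.014) turned to -0.13 when library totals alone were used, where the median of all genes was -0.35. The call was also lost with upper-quartile factors (0.05, edgeR adjusted p = 0.5), with the filter at 5 CPM (0.12, edgeR adjusted p = 0.063) and without replicate 2 of the untreated knockout (0.15, edgeR adjusted p = 0.062).

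EXTL1, an N-acetylglucosaminyltransferase of the same family, was scarce and lower in all 4 comparisons. It had 0.405, 0.244 and 0.382 CPM in knockout cells with IFN-γ, from 6 to 10 counts a library, and 1.66, 0.957 and 1.68 CPM in knockout cells without it. Wild-type cells had 1.60, 1.22 and 1.04 CPM with IFN-γ and 2.86, 1.94 and 2.48 CPM without it. Knockout libraries were below wild-type libraries at both settings, and treated libraries of the knockout were below untreated ones. The genotype difference was -1.89 on the log2 scale with IFN-γ (SE 0.36, edgeR adjusted p = 5.3e-05) and -0.76 without it (SE 0.26, edgeR adjusted p = 0.014). The untreated call was lost without replicate 2 of the knockout (-0.53, edgeR adjusted p = 0.11) or replicate 1 of the wild type (-0.63, edgeR adjusted p = 0.074). IFN-γ lowered EXTL1 by 2.03 in knockout (SE 0.35, edgeR adjusted p = 7.0e-06) and by 0.90 in wild-type cells (SE 0.27, edgeR adjusted p = 0.0046). The difference of these responses, -1.13, did not pass (SE 0.45, edgeR adjusted p = 0.091), but did without replicate 2 of the untreated knockout (-1.36, edgeR adjusted p = 0.038).

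EXTL2, which can end chain growth at the linker, had 7.66, 8.06 and 8.76 CPM in knockout cells with IFN-γ and 13.7, 15.1 and 15.1 CPM without it. Wild-type cells had 6.61, 7.56 and 9.26 CPM with IFN-γ and 12.5, 12.0 and 9.66 CPM without it. Treated libraries were lower than untreated ones in both genotypes, by 0.84 on the log2 scale in knockout (SE 0.11, edgeR adjusted p = 1.1e-07) and 0.55 in wild-type cells (SE 0.12, edgeR adjusted p = 0.00017). The rise in untreated knockout cells (0.36, edgeR adjusted p = 0.0056) was lost without replicate 3 of the untreated wild type (0.25, edgeR adjusted p = 0.073). EXTL3, which adds the glucosamine that opens a heparan sulphate chain, stayed between 29.7 and 37.2 CPM, with no call.

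NDST1 had most of the counted N-sulphation transcripts. It removes acetyl groups from glucosamine and puts sulphate in their place, and, with NDST2 understated by the counting, it provided 96.6% of the summed TPM of its step in knockout cells with IFN-γ and 92.8% without it, against 95.2% in wild-type cells with IFN-γ and 91.5% without it. Its level averaged 324 ± 5.64 CPM in knockout cells with IFN-γ and 244 ± 6.68 CPM without it, against 314 ± 15.4 CPM in wild-type cells with IFN-γ and 240 ± 11.5 CPM without it (SD, n = 3 each). NDST1 rose with IFN-γ by 0.40 in knockout (SE 0.04, edgeR adjusted p = 5.9e-10) and 0.39 in wild-type cells (SE 0.04, edgeR adjusted p = 1.7e-09). Genotype made a difference of 0.04 with IFN-γ (95% interval -0.04 to 0.13) and 0.03 without it (-0.06 to 0.11).

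NDST2, the second such enzyme, was understated by the counting. Another gene on the same strand, ENSG00000272916, covers 82.9% of its exon bases, and reads over shared bases were left out. The 797 bases of its own had 320 counts per kilobase over all libraries, against 9628 counts per kilobase for NDST1. On these, NDST2 had 0.648, 0.774 and 0.803 CPM in knockout cells with IFN-γ and 0.432, 0.765 and 0.710 CPM without it. Wild-type cells had 1.04, 1.56 and 0.956 CPM with IFN-γ and 0.724, 0.462 and 0.604 CPM without it. The wild-type groups did not overlap, and NDST2 rose by 1.00 on the log2 scale with IFN-γ (SE 0.35, edgeR adjusted p = 0.015). That call was lost without replicate 2 of the treated wild type (0.75, edgeR adjusted p = 0.12) or replicate 2 of the untreated wild type (0.85, edgeR adjusted p = 0.072), or with library totals (0.76, edgeR adjusted p = 0.06).

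GLCE, the epimerase that turns glucuronic into iduronic acid, was lower with IFN-γ and lower in the knockout. It had 6.48, 6.96 and 7.11 CPM in knockout cells with IFN-γ and 11.2, 14.1 and 11.9 CPM without it. Wild-type cells had 8.98, 9.16 and 9.78 CPM with IFN-γ and 14.7, 14.03 and 14.8 CPM without it. The treated groups were apart, while 1 untreated knockout library lay within the untreated wild-type range. GLCE fell in the knockout by 0.44 on the log2 scale with IFN-γ (SE 0.11, edgeR adjusted p = 0.0012) and by 0.22 without it (SE 0.09, edgeR adjusted p = 0.048). The untreated call was lost when any library but replicate 2 of the treated or untreated knockout was left out (log2 fold changes -0.25 to -0.16, edgeR adjusted p from 0.05 to 0.24), with DESeq2 (adjusted p = 0.091) or with no low-count filter (edgeR adjusted p = 0.093). IFN-γ lowered GLCE by 0.86 in knockout (SE 0.10, edgeR adjusted p = 1.4e-08) and by 0.64 in wild-type cells (SE 0.10, edgeR adjusted p = 1.5e-06).

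Among the O-sulphotransferases, 3 of the 4 tested genes were lower in the knockout at both settings and none was higher. Of all genes 24.3% were lower with IFN-γ and 24.8% without it, and 4 genes are few. HS2ST1, which sulphates iduronic acid at 2-O, had the highest level of the step. Knockout cells had 63.2, 55.2 and 59.0 CPM with IFN-γ, against 77.2, 68.2 and 75.2 CPM in wild-type cells with IFN-γ. Untreated knockout cells had 71.7, 89.4 and 89.8 CPM, against 126, 124 and 133 CPM in untreated wild-type cells. The groups did not overlap at either setting. HS2ST1 fell in the knockout by 0.31 with IFN-γ (SE 0.07, edgeR adjusted p = 0.00025) and by 0.61 without it (SE 0.06, edgeR adjusted p = 1.3e-09). IFN-γ lowered it by 0.50 in knockout (SE 0.07, edgeR adjusted p = 7.7e-08) and by 0.80 in wild-type cells (SE 0.06, edgeR adjusted p = 2.1e-12).

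HS6ST1, which adds sulphate at 6-O, differed by genotype and not detectably by IFN-γ. It had 10.2, 8.63 and 8.56 CPM in knockout cells with IFN-γ, against 14.7, 15.3 and 15.4 CPM in wild-type cells with IFN-γ. Untreated knockout cells had 10.7, 10.1 and 8.55 CPM, against 13.9, 14.2 and 15.2 CPM in untreated wild-type cells. All 6 knockout libraries lay below all 6 wild-type libraries. HS6ST1 in the knockout stood at 60.5% of wild type under IFN-γ (log2 fold change -0.73, SE 0.10, edgeR adjusted p = 3.4e-07) and to 67.5% without it (-0.57, SE 0.10, edgeR adjusted p = 1.0e-05). Its IFN-γ response was -0.10 in knockout (95% interval -0.30 to 0.10) and 0.06 in wild-type cells (-0.12 to 0.25). Part of its sequence, 12.7% of its windows of 75 bases, also occurs in the pseudogene HS6ST1P1. Its level is therefore uncertain, by an amount that was not examined.

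HS3ST3A1, a 3-O-sulphotransferase whose product binds the glycoprotein D of herpes simplex virus, had the largest rise with IFN-γ among the members and was also lower in the knockout. It had 2.11, 1.91 and 2.37 CPM in knockout cells with IFN-γ and 0.432, 0.446 and 0.129 CPM without it. Wild-type cells had 5.53, 5.36 and 6.21 CPM with IFN-γ and 0.572, 0.987 and 0.872 CPM without it. No groups overlapped in any of the 4 comparisons, and the lowest library had 4 counts. IFN-γ raised HS3ST3A1 6.33-fold in knockout (log2 fold change 2.66, SE 0.31, edgeR adjusted p = 4.7e-09) and 6.91-fold in wild-type cells (2.79, SE 0.24, edgeR adjusted p = 7.7e-12). Knockout cells reached 37.5% of wild type under IFN-γ (log2 fold change -1.41, SE 0.21, edgeR adjusted p = 1.6e-06) and 41.0% without it (-1.29, SE 0.35, edgeR adjusted p = 0.0025).

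HS3ST3B1 makes the same product from a gene on the same arm of chromosome 17. It had 1.99, 2.16 and 1.72 CPM in knockout cells with IFN-γ and 1.33, 1.31 and 1.16 CPM without it. Wild-type cells had 2.16, 2.66 and 3.48 CPM with IFN-γ and 0.762, 1.08 and 1.31 CPM without it. Treated libraries were above untreated ones in each genotype. HS3ST3B1 rose with IFN-γ by 1.38 on the log2 scale in wild-type cells (SE 0.25, edgeR adjusted p = 1.4e-05) and by 0.62 in knockout cells (SE 0.25, edgeR adjusted p = 0.03). The knockout call was lost when replicate 1 or 2 of the treated or replicate 2 or 3 of the untreated knockout was left out (0.57 to 0.65, edgeR adjusted p from 0.052 to 0.085). It was also lost with DESeq2 (0.64, adjusted p = 0.067), upper-quartile factors (0.51, edgeR adjusted p = 0.076) and library totals (0.33, edgeR adjusted p = 0.24). Between genotypes with IFN-γ it had -0.50 (edgeR adjusted p = 0.079), -0.65 without replicate 1 of the treated wild type (edgeR adjusted p = 0.037) and -0.58 with library totals (edgeR adjusted p = 0.04).

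The 2 genes share an identical coding stretch of 537 bases, each in 1 exon, at chr17:13496203-13496739 (GRCh38, minus strand) for HS3ST3A1 and chr17:14345107-14345643 (plus strand) for HS3ST3B1. Of the windows of 75 bases, 18.6% of those of HS3ST3A1 and 8.85% of those of HS3ST3B1 occur in the other gene. A read inside the stretch can be counted for either gene, so each value above may hold some counts of the other. The first 120 bases of the stretch are shown for both, at chr17:13496620-13496739 (minus strand) and chr17:14345107-14345226 (plus strand), to let the identity be read.
HS3ST3A1: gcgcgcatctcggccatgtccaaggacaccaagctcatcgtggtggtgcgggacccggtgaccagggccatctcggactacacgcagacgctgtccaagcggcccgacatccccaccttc
HS3ST3B1: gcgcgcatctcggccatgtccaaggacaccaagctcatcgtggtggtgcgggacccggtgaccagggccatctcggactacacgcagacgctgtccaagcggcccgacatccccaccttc

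**Figure D2:**
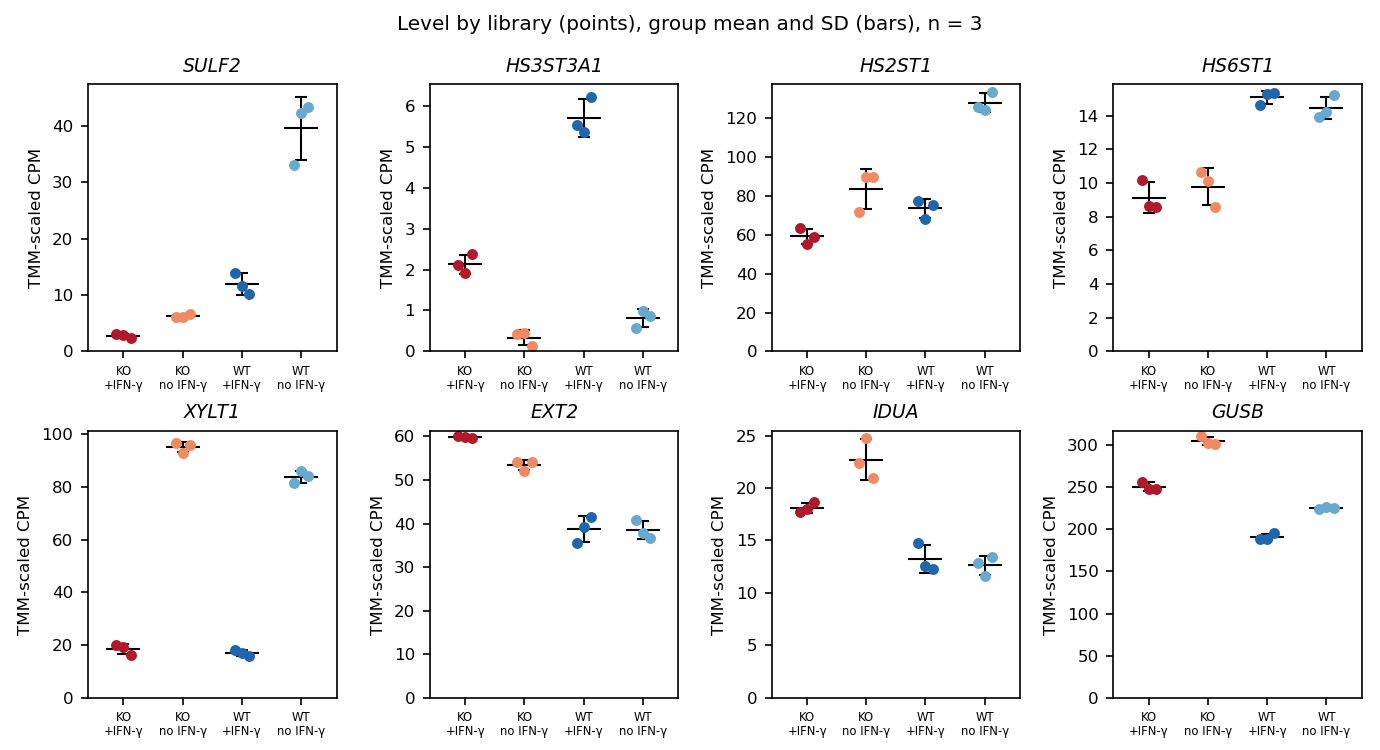
TMM-scaled CPM of 8 members in each library (points), with the group mean and SD (bars, n = 3), for the 4 groups named on the horizontal axes. SULF2 and HS6ST1 are lower and EXT2, IDUA and GUSB higher in the knockout groups, XYLT1 is low in both treated groups, and HS3ST3A1 is high in treated wild-type cells, at 5.36 to 6.21 CPM.

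The makeup of the O-sulphation step changed accordingly. HS3ST3A1 provided 7.32% of the summed TPM of the step in knockout cells with IFN-γ and 0.946% without it, against 13.7% in wild-type cells with IFN-γ and 1.48% without it. HS2ST1 provided 71.7% in knockout cells with IFN-γ and 81.9% without it, against 62.5% in wild-type cells with IFN-γ and 82.7% without it. The summed level of the step was 39.6 ± 2.64 TPM in knockout cells with IFN-γ and 59.8 ± 5.85 TPM without it, against 58.9 ± 2.59 TPM in wild-type cells with IFN-γ and 92.0 ± 3.61 TPM without it (SD, n = 3 each). TPM rest on library totals, so sums set side by side between treated and untreated groups include the shift of all genes given above, while shares within a step do not.

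Outside the cell, SULF2 showed the largest genotype difference of all members. SULF2 is a secreted sulphatase that removes 6-O sulphate from finished chains. It had 3.04, 2.85 and 2.37 CPM in knockout cells with IFN-γ, against 13.99, 11.6 and 10.2 CPM in wild-type cells with IFN-γ. In untreated knockout cells it was 6.16, 6.15 and 6.55 CPM, against 33.1, 42.2 and 43.4 CPM in untreated wild-type cells. The highest knockout library stayed below the lowest wild-type library, and within each genotype the treated libraries stayed below the untreated ones. SULF2 in the knockout reached 23.0% of wild type under IFN-γ and 15.9% in untreated cells (log2 fold change -2.66, SE 0.11, edgeR adjusted p = 3.1e-19). IFN-γ lowered it by 1.19 on the log2 scale in knockout (SE 0.15, edgeR adjusted p = 3.2e-08) and by 1.73 in wild-type cells (SE 0.10, edgeR adjusted p = 8.6e-16). The difference of the responses, 0.54 (SE 0.19, edgeR adjusted p = 0.051), passed when replicate 3 of the treated knockout, replicate 1 of the treated wild type or replicate 1 of the untreated wild type was left out (0.64, 0.66 and 0.65, edgeR adjusted p = 0.037, 0.014 and 0.0079). With all libraries it also passed under DESeq2 (0.56, adjusted p = 0.038), RLE size factors (0.56, edgeR adjusted p = 0.038) and no low-count filter (0.55, edgeR adjusted p = 0.019).

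HPSE, the heparanase that cuts chains, kept a much narrower range of 14.2 to 21.5 CPM over all libraries. It was higher in the knockout with IFN-γ by 0.26 on the log2 scale (SE 0.09, edgeR adjusted p = 0.013), a call lost without replicate 1 of the treated knockout (0.21, edgeR adjusted p = 0.085) or replicate 2 of the treated wild type (0.24, edgeR adjusted p = 0.054), or with library totals (0.18, edgeR adjusted p = 0.09). IFN-γ lowered it by 0.33 in wild-type cells (SE 0.09, edgeR adjusted p = 0.0014) and by 0.21 in knockout cells, where the groups overlapped and leaving out replicate 2 or 3 of the treated or replicate 1 or 2 of the untreated knockout ended the call (edgeR adjusted p from 0.085 to 0.19), as did DESeq2 (adjusted p = 0.088) and no low-count filter (edgeR adjusted p = 0.068). SULF2 thus provided 9.95% of the summed TPM of SULF2 and HPSE in knockout cells with IFN-γ and 17.98% without it, against 36.3% in wild-type cells with IFN-γ and 60.0% without it. HPSE had the larger part in 3 of the groups and SULF2 in untreated wild-type cells.

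**Figure D3:**
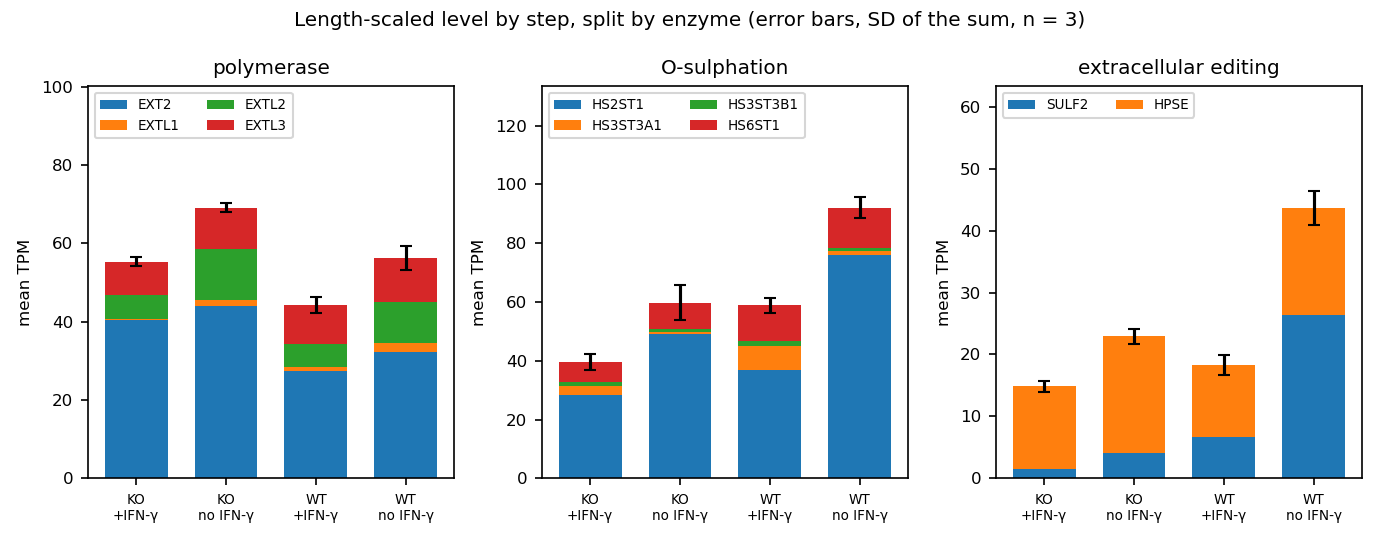
Mean TPM summed over the tested members of 3 steps, split by enzyme (colours) for each of the 4 groups, with the SD of the sum (bars, n = 3). SULF2 makes up 9.95% of its bar in knockout cells with IFN-γ and 60.0% in wild-type cells without it, and HS3ST3A1 is visible mainly in treated cells.

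Precursor supply covers the sugar nucleotides, the sulphate donor PAPS and their carriers. Genotype called 2 of the 7 genes higher and 1 lower with IFN-γ, and 2 higher and 3 lower without it. IFN-γ called 1 higher and 5 lower in knockout cells, and none higher and 5 lower in wild-type cells. UGDH, UXS1, PAPSS2, SLC35B2 and SLC26A2 were lower in both. For all genes the genotype shares were 22.9% higher and 24.3% lower with IFN-γ, and 25.4% and 24.8% without it. Their IFN-γ shares were 29.2% higher and 31.8% lower in knockout cells, and 28.6% and 27.9% in wild-type cells.

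UGDH, which makes UDP-glucuronic acid, had 27.6, 29.2 and 28.6 CPM in knockout cells with IFN-γ and 41.6, 39.7 and 39.8 CPM without it. Wild-type cells had 31.8, 26.6 and 28.1 CPM with IFN-γ and 41.7, 38.4 and 41.8 CPM without it. IFN-γ separated the libraries in both genotypes and genotype did not. The fall with IFN-γ was 0.50 on the log2 scale in knockout (SE 0.07, edgeR adjusted p = 9.0e-08) and 0.49 in wild-type cells (SE 0.07, edgeR adjusted p = 1.5e-07), and the genotype difference was -0.02 with IFN-γ (95% interval -0.15 to 0.12).

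UXS1 turns UDP-glucuronic acid into UDP-xylose, the sugar that starts the linker. It had 60.1, 59.2 and 61.4 CPM in knockout cells with IFN-γ and 78.0, 79.4 and 80.3 CPM without it. Wild-type cells had 71.8, 66.3 and 63.4 CPM with IFN-γ and 101, 101 and 99.4 CPM without it. All 4 groups were apart. UXS1 fell with IFN-γ by 0.40 in knockout (SE 0.05, edgeR adjusted p = 2.7e-08) and by 0.58 in wild-type cells (SE 0.05, edgeR adjusted p = 4.7e-12). Between genotypes it was lower in the knockout by 0.35 without IFN-γ (SE 0.05, edgeR adjusted p = 3.3e-07) and by 0.16 with it (SE 0.05, edgeR adjusted p = 0.01). The call with IFN-γ was lost without replicate 2 of the treated knockout (-0.12, edgeR adjusted p = 0.1) or replicate 1 of the treated wild type (-0.11, edgeR adjusted p = 0.11).

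PAPSS1 and PAPSS2 both make PAPS, and they moved differently. PAPSS2 had 31.3, 32.6 and 31.3 CPM in knockout cells with IFN-γ and 33.1, 39.8 and 36.7 CPM without it. Wild-type cells had 33.1, 28.9 and 30.8 CPM with IFN-γ and 44.1, 50.4 and 47.8 CPM without it. Untreated wild-type cells stood above the other 3 groups. PAPSS2 was lower in untreated knockout than in untreated wild-type cells by 0.38 on the log2 scale (SE 0.07, edgeR adjusted p = 2.2e-05). It fell with IFN-γ by 0.62 in wild-type cells (SE 0.07, edgeR adjusted p = 3.7e-09) and by 0.20 in knockout cells (SE 0.07, edgeR adjusted p = 0.013), a call lost without replicate 2 of the untreated knockout (-0.14, edgeR adjusted p = 0.14). PAPSS1 averaged 242 ± 4.45 CPM in knockout cells with IFN-γ and 216 ± 5.48 CPM without it, against 196 ± 3.29 CPM in wild-type cells with IFN-γ and 197 ± 3.27 CPM without it (SD, n = 3 each). It was higher in the knockout by 0.31 with IFN-γ (SE 0.04, edgeR adjusted p = 7.2e-08) and by 0.14 without it (SE 0.04, edgeR adjusted p = 0.0041). Its rise with IFN-γ in knockout cells (0.16, edgeR adjusted p = 0.00051) turned to -0.13 with library totals alone, where the median of all genes was -0.35, and was 0.04 with upper-quartile factors (edgeR adjusted p = 0.33).

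SLC26A2, which imports sulphate into the cell, had 25.5, 21.3 and 21.8 CPM in knockout cells with IFN-γ and 32.3, 34.4 and 35.6 CPM without it. Wild-type cells had 23.0, 26.0 and 22.8 CPM with IFN-γ and 41.4, 40.5 and 42.7 CPM without it. Treated libraries were lower in both genotypes, by 0.58 on the log2 scale in knockout (SE 0.07, edgeR adjusted p = 3.3e-08) and 0.79 in wild-type cells (SE 0.07, edgeR adjusted p = 3.2e-11). In untreated cells SLC26A2 was lower in the knockout by 0.28 (SE 0.07, edgeR adjusted p = 0.00092). The carriers that bring PAPS into the Golgi differed from each other. SLC35B2 fell with IFN-γ by 0.43 in knockout and 0.46 in wild-type cells (edgeR adjusted p = 5.5e-10 and 1.6e-10), with no call between genotypes. SLC35B3 was higher in the knockout by 0.27 with IFN-γ and 0.29 without it (edgeR adjusted p = 0.003 and 0.00097), with no call for IFN-γ.

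Of the 6 lysosomal enzymes IDUA, SGSH and GUSB were higher in the knockout at both settings. The share of all genes that were higher was 22.9% with IFN-γ and 25.4% without it. IDUA, the iduronidase, had 17.7, 17.96 and 18.6 CPM in knockout cells with IFN-γ, against 14.8, 12.6 and 12.3 CPM in wild-type cells with IFN-γ. Untreated knockout cells had 22.4, 24.8 and 20.9 CPM, against 12.8, 11.7 and 13.4 CPM in untreated wild-type cells. All 6 knockout libraries lay above all 6 wild-type libraries. IDUA rose in the knockout by 0.45 on the log2 scale with IFN-γ (SE 0.09, edgeR adjusted p = 0.00013) and by 0.85 without it (SE 0.09, edgeR adjusted p = 1.1e-09). The antisense gene SLC26A1 shares 13.4% of the exon bases of IDUA, and reads over those bases were left out.

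GUSB, which removes glucuronic acid, averaged 250 ± 5.30 CPM in knockout cells with IFN-γ and 305 ± 5.06 CPM without it, against 191 ± 4.10 CPM in wild-type cells with IFN-γ and 225 ± 1.44 CPM without it (SD, n = 3 each). It rose in the knockout by 0.39 with IFN-γ (SE 0.04, edgeR adjusted p = 3.0e-10) and 0.44 without it (SE 0.04, edgeR adjusted p = 1.8e-11), and fell with IFN-γ by 0.28 in knockout and 0.24 in wild-type cells. SGSH, which removes N-linked sulphate, averaged 207 ± 9.49 CPM in knockout cells with IFN-γ and 222 ± 8.91 CPM without it, against 168 ± 6.34 CPM in wild-type cells with IFN-γ and 169 ± 4.94 CPM without it. Its genotype differences were 0.31 and 0.39 (SE 0.04 each, edgeR adjusted p = 8.1e-07 with IFN-γ and 6.2e-09 without it).

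HGSNAT, the transferase that acetylates glucosamine at the lysosomal membrane before NAGLU can remove it, responded to IFN-γ. It had 84.4, 79.8 and 83.4 CPM in knockout cells with IFN-γ and 152, 155 and 158 CPM without it. Wild-type cells had 89.8, 96.9 and 98.5 CPM with IFN-γ and 156, 155 and 153 CPM without it. HGSNAT fell with IFN-γ to 53.4% of the untreated level in knockout (log2 fold change -0.91, SE 0.04, edgeR adjusted p = 4.9e-18) and to 61.5% in wild-type cells (-0.70, SE 0.04, edgeR adjusted p = 4.1e-15). The treated knockout was 0.20 lower than the treated wild type on the log2 scale (edgeR adjusted p = 0.00042), and the untreated difference was 0.00 (95% interval -0.08 to 0.08). IDS, the iduronate sulphatase, ranged from 68.0 to 87.5 CPM and NAGLU, the glucosaminidase, from 41.8 to 52.1 CPM, and neither was called in any comparison of 2 groups. Other genes share 17.4% of the exon bases of IDS and 12.6% of those of NAGLU, and 16.9% of the windows of 75 bases of IDS occur in other genes. Both levels are therefore uncertain, by an amount that was not examined.

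The IFN-γ response differed between genotypes for 5 of the 33 members, which is 15.2%, where 15.5% of all tested genes differed (7.61% with a higher and 7.86% with a lower response in the knockout). PAPSS2 had the surest difference, 0.42 on the log2 scale (SE 0.10, edgeR adjusted p = 0.003), since its fall was smaller in the knockout. HS2ST1 likewise fell less in the knockout (difference 0.30, SE 0.09, edgeR adjusted p = 0.027). PAPSS1 differed by 0.17 (SE 0.05, edgeR adjusted p = 0.031). IDUA differed by -0.40 (SE 0.13, edgeR adjusted p = 0.03) and HGSNAT by -0.20 (SE 0.06, edgeR adjusted p = 0.024), with the lower response in knockout cells. Leaving out 1 library ended the calls of HS2ST1 (4 of the 12 libraries, edgeR adjusted p up to 0.12), PAPSS1 (5 libraries, up to 0.083), IDUA (5 libraries, up to 0.13) and HGSNAT (5 libraries, up to 0.18), each with its sign kept, and never that of PAPSS2. Other methods ended some of them too, with library totals for HS2ST1 (edgeR adjusted p = 0.07) and PAPSS1 (0.12), DESeq2 for IDUA (adjusted p = 0.063), and RLE size factors (edgeR adjusted p = 0.054) or no low-count filter (0.062) for HGSNAT. The libraries concerned were replicate 1 of the treated knockout for HS2ST1, PAPSS1 and IDUA, and replicate 2 for IDUA and HGSNAT. Among untreated knockout libraries they were replicate 1 for HS2ST1, replicate 2 for PAPSS1 and IDUA, and replicate 3 for PAPSS1 and HGSNAT. Among treated wild-type libraries they were replicate 1 for IDUA, replicate 2 for HS2ST1 and HGSNAT, and replicate 3 for PAPSS1 and HGSNAT. Among untreated wild-type libraries they were replicate 2 for IDUA and replicate 3 for HS2ST1, PAPSS1 and HGSNAT.

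**Figure D4:**
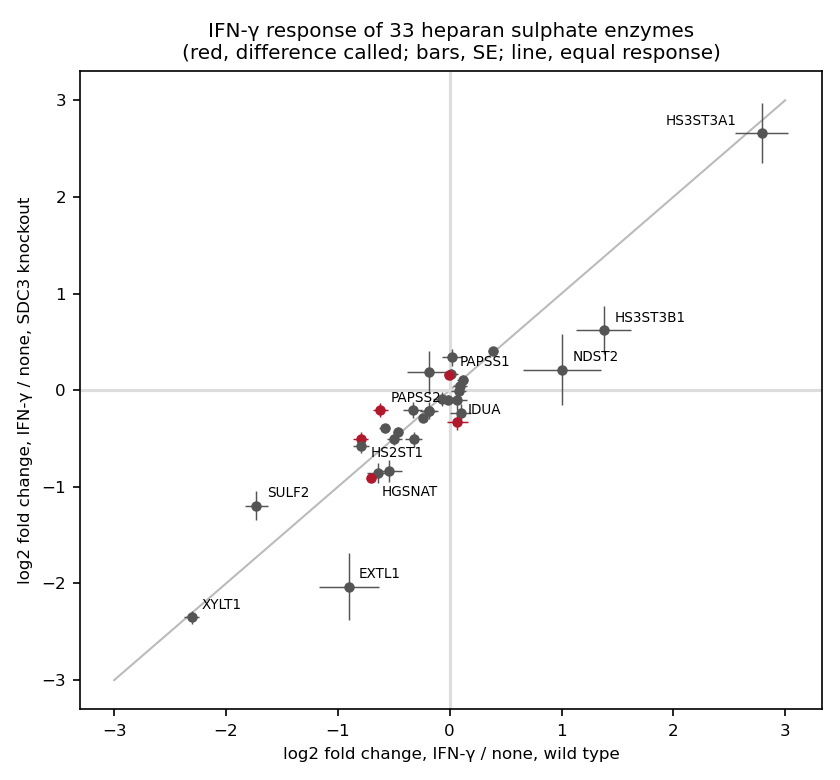
Log2 fold change with IFN-γ over untreated cells for the 33 tested members in SDC3-knockout cells (vertical axis) and wild-type cells (horizontal axis), with SE bars and the line of equal responses. Red points are the 5 members whose responses differed at an adjusted p under 0.05. XYLT1 and HS3ST3A1 lie at the ends, near -2.35 and 2.66 in the knockout.

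Promoters of interferon-responsive genes often hold the gamma-activated site TTCNNNGAA or the core of the interferon-stimulated response element (GAAA, any 2 bases, GAAA). RefSeq start-site windows on GRCh38.p14, from 250 bases before to 50 after a start, were found for 31 of the 38 members, 45 windows in all. On either strand, TTCNNNGAA was in 6 of the 45 windows, 13.3%, against 7.66% of 35116 windows of all genes. These 6 belonged to B3GAT3, EXTL2, HS6ST2, NDST2 and UXS1, the last with 2 start sites. The response element core was in 0 of the 45 windows and in 3.57% of all. Neither motif was in the windows of XYLT1 or HS3ST3A1, the members with the largest fall and rise with IFN-γ. The 150 bases before their starts are shown because these genes moved most: XYLT1 at chr16:17470961-17471110 and HS3ST3A1 at chr17:13601930-13602079, both on the minus strand.
XYLT1: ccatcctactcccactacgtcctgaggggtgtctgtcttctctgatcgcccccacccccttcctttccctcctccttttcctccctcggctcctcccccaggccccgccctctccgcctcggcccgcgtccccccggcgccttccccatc
HS3ST3A1: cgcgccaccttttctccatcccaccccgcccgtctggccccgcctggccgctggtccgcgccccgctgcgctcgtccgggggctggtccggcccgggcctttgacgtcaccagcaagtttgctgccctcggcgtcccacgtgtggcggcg

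The matches of B3GAT3 and UXS1 are shown for comparison, with TTCNNNGAA in capitals and its neighbouring bases in lower case, all on the minus strand. B3GAT3 is at chr11:62622165-62622213, 207 bases before its start. UXS1 is at chr2:106194471-106194519, 198 bases before one start, and at chr2:106160695-106160743, 86 bases before another.
B3GAT3: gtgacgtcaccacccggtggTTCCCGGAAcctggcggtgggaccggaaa
UXS1 (198 bases before): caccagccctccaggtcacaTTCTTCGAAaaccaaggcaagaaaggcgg
UXS1 (86 bases before): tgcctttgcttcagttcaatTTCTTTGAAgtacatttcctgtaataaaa
UXS1 was lower with IFN-γ in both genotypes, and B3GAT3 had log2 fold changes of 0.34 in knockout (SE 0.09, edgeR adjusted p = 0.0011) and 0.02 in wild-type cells. The knockout call was lost with library totals (0.04, edgeR adjusted p = 0.68). The difference of the B3GAT3 responses was not called with all libraries under TMM. It was called without replicate 3 of the treated knockout (0.38, edgeR adjusted p = 0.049). Leaving out replicate 1 of the treated (0.40, edgeR adjusted p = 0.034) or untreated wild type (0.39, edgeR adjusted p = 0.027) also gave a call. A match describes letters, not binding.

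Several members lie in chromosome stretches whose genes differed together between the genotypes. The median log2 fold change of the 20 nearest tested genes of SULF2 (chr20:47656348-47786616, hg38, minus strand) was -0.28 with IFN-γ, with 14 of them lower and 0 higher. Without it the median was -0.24, with 13 lower and 2 higher. SULF2 itself had -2.12 with IFN-γ and -2.66 without it. Around HS3ST3A1 the neighbours' median was -0.49 with IFN-γ, with 11 lower and 0 higher, and -0.34 without it, with 7 lower and 0 higher. The gene itself had -1.41 and -1.29. The genes around HS3ST3B1 had medians of -0.52, with 14 lower and 0 higher, and -0.44, with 10 lower and 0 higher. HS3ST3B1 itself had -0.50 and 0.26. HS3ST3A1 ends at chr17:13601927 and HS3ST3B1 starts at chr17:14301083, while their neighbours span 5.46 and 5.28 Mb. These sets overlap and describe 1 region. Around IDUA the median was 0.18 with IFN-γ, with 8 of 20 higher and 1 lower. Without it the median was 0.50, with 17 higher and 1 lower. IDUA itself had 0.45 and 0.85. FAM20B, at 0.23 and 0.27, did not exceed its neighbours' medians of 0.30 and 0.39. Nor did XYLT1, at 0.14 and 0.18, exceed its neighbours' medians of 0.24 and 0.37, with 11 higher and 1 lower at each setting. Around PXYLP1 the medians were -0.18, with 3 higher and 9 lower, and -0.20, with 4 higher and 11 lower. PXYLP1 itself had -0.40 with IFN-γ and -0.76 without it. HS6ST1 was lower in the knockout where its neighbours had medians of 0.02 with IFN-γ and 0.03 without it, with 4 higher and 4 lower, and 5 higher and 3 lower. Around EXTL1 the medians were -0.13, with 3 higher and 9 lower, and -0.02, with 4 higher and 5 lower. Around GUSB they were 0.07, with 3 higher and 1 lower, and 0.16, with 6 higher and 1 lower. Whether neighbouring genes and members share a source of their difference was not tested, and genotype cannot be told apart from any other difference between the edited and unedited cells.

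**Figure D5:**
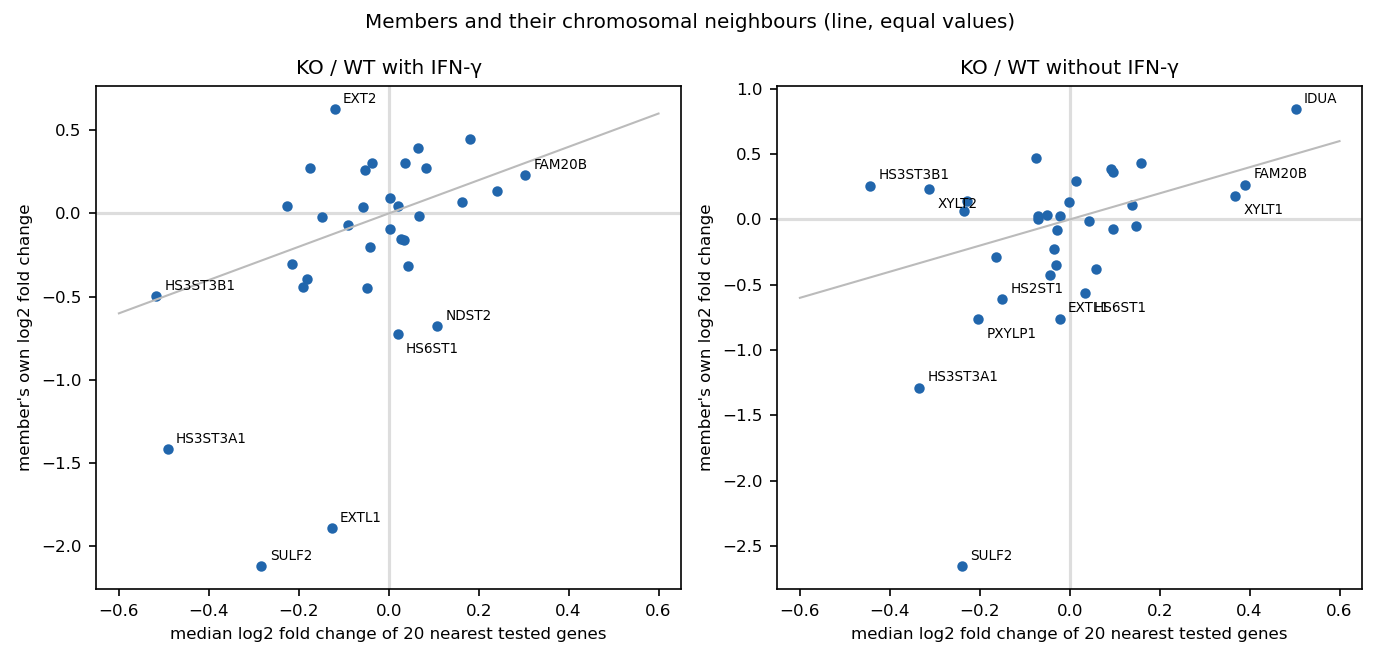
Each point is a tested member, with its own log2 fold change of knockout over wild type (vertical axis) and the median of its 20 nearest tested genes (horizontal axis), with IFN-γ on the left and without it on the right. SULF2 lies far below the line of equal values, at -2.12 and -2.66, and FAM20B lies close to it.

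Other genes of the pathway served for comparison. Of 18 further genes of heparan sulphate handling, 11 could be tested. In the knockout 5 were higher and 3 lower with IFN-γ (45.5% and 27.3%, against 22.9% and 24.3% of all genes). Without it 3 were higher and 3 lower (27.3% each, against 25.4% and 24.8%). With IFN-γ 8 were higher and 2 lower in knockout cells (72.7% and 18.2%, against 29.2% and 31.8% of all genes). In wild-type cells 6 were higher and 2 lower (54.5% and 18.2%, against 28.6% and 27.9%). Their median IFN-γ response was 0.19 in knockout and 0.13 in wild-type cells, where that of the 33 members was -0.21 and -0.18. TMEM165, which keeps the ion balance of the Golgi, stood out with log2 fold changes of 1.11 (SE 0.04, edgeR adjusted p = 1.2e-20) in knockout and 0.77 (SE 0.04, edgeR adjusted p = 3.9e-16) in wild-type cells with IFN-γ. The remaining sulphotransferases of the families, HS3ST4, HS6ST3 and NDST4, had 0 counts, and HS3ST5, HS3ST6 and NDST3 had at most 4 counts over all libraries.

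Chondroitin sulphate grows on the same linker, so its enzymes show what happened on the neighbouring branch. Of 20 such genes 19 were tested. In the knockout 5 were higher and 8 lower with IFN-γ (26.3% and 42.1%, against 22.9% and 24.3% of all genes). Without it 5 were higher and 7 lower (26.3% and 36.8%, against 25.4% and 24.8%). IFN-γ gave 6 higher and 7 lower in knockout cells (31.6% and 36.8%, against 29.2% and 31.8% of all genes). In wild-type cells it gave 5 higher and 7 lower (26.3% and 36.8%, against 28.6% and 27.9%). CHST15, which adds a further sulphate to chondroitin, measured 8.83, 8.80 and 7.72 CPM in knockout cells with IFN-γ, against 66.2, 59.4 and 66.8 CPM in wild-type cells with IFN-γ. Untreated knockout cells had 12.0, 11.2 and 10.9 CPM, against 89.2, 109 and 116 CPM in untreated wild-type cells. These groups were far apart, and CHST15 reached 13.2% of wild type under IFN-γ (log2 fold change -2.92, SE 0.09, edgeR adjusted p = 2.9e-22) and 10.8% in untreated cells (-3.21, SE 0.08, edgeR adjusted p = 1.9e-24). CHST13, a chondroitin 4-O-sulphotransferase, fell in the knockout by 1.42 with IFN-γ (SE 0.14, edgeR adjusted p = 6.2e-10) and by 0.91 without it (SE 0.12, edgeR adjusted p = 7.6e-08). UST, a 2-O-sulphotransferase of chondroitin and dermatan sulphate, fell by 0.63 with IFN-γ (SE 0.14, edgeR adjusted p = 0.00043) and by 1.69 without it (SE 0.13, edgeR adjusted p = 2.1e-12).

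DSE, the epimerase that makes dermatan sulphate, had 71.4, 74.1 and 71.4 CPM in knockout cells with IFN-γ and 15.98, 17.3 and 17.4 CPM without it. Wild-type cells had 89.1, 98.7 and 90.5 CPM with IFN-γ and 45.05, 48.9 and 49.5 CPM without it. It rose with IFN-γ in both genotypes, by 2.10 in knockout (SE 0.06, edgeR adjusted p = 2.6e-24) and 0.95 in wild-type cells (SE 0.05, edgeR adjusted p = 3.2e-16), whereas GLCE, its counterpart for heparan sulphate, fell. CSGALNACT1, which starts a chondroitin chain, was lower with IFN-γ by 0.97 in knockout (SE 0.36, edgeR adjusted p = 0.022) and 1.17 in wild-type cells (SE 0.36, edgeR adjusted p = 0.0061). Its knockout call was lost without replicate 3 of the treated knockout (-0.56, edgeR adjusted p = 0.17), replicate 1 (-0.92, edgeR adjusted p = 0.051) or replicate 2 (-0.89, edgeR adjusted p = 0.066) of the untreated knockout, and with DESeq2 (-0.95, adjusted p = 0.062). The wild-type call was lost without replicate 3 of the treated (-0.84, edgeR adjusted p = 0.053) or of the untreated wild type (-0.94, edgeR adjusted p = 0.052).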

How the data were processed

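Poly(A) RNA of 12 THP-1 libraries, 3 in each of 4 groups, was prepared with a stranded kit, per the labels' protocols. The authors deposited raw read counts per gene on hg38, made with featureCounts 2.0.3 per the file headers (exons, primary alignments, no chimeric pairs). No strand option and no option to count reads over several genes were given there, so antisense reads cannot be told apart and reads over shared exons were left out. Mates were counted separately, and 70.4% to 73.3% of counts from 1 to 19 were even. Near-identical copies are uncertain. Per the submitters' processing notes, Subread, STAR 2.7.10b and BWA were among the tools, as were Picard 2.27.5, MultiQC 1.13, FastQC and fastp 0.23.2. Which aligner fed the counting, and which annotation release, is not given in the sources used here.

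Genes were filtered with filterByExpr, scaled by TMM and tested with edgeR 4.0.16 (quasi-likelihood, two-sided) with a group term over the 12 libraries together and 8 residual degrees of freedom. P-values were adjusted by Benjamini-Hochberg over 17119 genes and called under 0.05. The standard error is the log2 fold change divided by the root of the F statistic, and 95% intervals are 1.96 of these. CPM are TMM-scaled, and TPM use the deposited exon lengths. Every library's value is given for members called with a log2 fold change of at least 0.5 in size in 1 of the 4 comparisons of 2 groups, and counts for untested members. Of the other pathway genes, those called at 1.0 or more are named. Members, lists and rules were chosen with earlier results of these data known. Exon overlaps were computed from the exon coordinates deposited with the counts, and shared windows from GENCODE 29 transcripts. Symbols came from a reference table that held 56948 of the 58051 genes. The fit was tested on simulated data.

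Alternatives were DESeq2 1.42.0, RLE, upper-quartile and no scaling factors, a fit restricted to the compared libraries, no filter, a filter at 5 CPM in 3 libraries, a replicate block and each library left out. Protein sequences were not analysed here. R 4.3.3, Python 3.11.15, pandas 2.3.3, numpy 2.4.6 and matplotlib 3.10.9 were used.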

Additional observations from a re-analysis of the deposited data

Results flagged for a closer look

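The IFN-γ response differed between SDC3-knockout and wild-type cells, by the interaction test of edgeR at an adjusted p under 0.05, for 5 heparan sulphate genes. The response in knockout cells minus that in wild-type cells was 0.30 on the log2 scale for HS2ST1, 0.17 for PAPSS1, 0.42 for PAPSS2, -0.40 for IDUA and -0.20 for HGSNAT. Among the other pathway genes named above the same difference was 0.34 for TMEM165, 1.14 for DSE and 1.06 for UST. For SDC3, the edited gene, it was 1.00, from 2.34 in knockout and 1.33 in wild-type cells.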

How the results depend on the processing

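Of the counts of called members, those between genotypes stayed within 1.5 times under each setting tried. In knockout cells the 6 members higher with IFN-γ became 2 with library totals alone and 3 with upper-quartile factors. In wild-type cells the 4 higher became 2 with a filter at 5 CPM, where fewer genes were tested, and the 16 lower became 25 with library totals. The 3 members with a higher response in the knockout became 5 with DESeq2, 5 with RLE size factors and 1 with library totals, and the 2 with a lower one became 1 with DESeq2, RLE or no low-count filter. The cause was not tested. Reversed values were those of EXT2 (-0.13) and PAPSS1 (-0.13) for IFN-γ in knockout cells with library totals. That setting also lowered the share of higher calls over all genes to 35.6% in knockout over wild-type cells with IFN-γ, against 48.6%, and to 35.0% for the difference of responses, against 49.2%.

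With 1 library left out the counts ranged, higher and lower, over 7 to 10 and 8 to 11 between genotypes with IFN-γ, 9 to 10 and 9 to 11 without it, 4 to 6 and 15 to 20 for IFN-γ in knockout, 3 to 5 and 16 to 17 in wild-type cells, and 1 to 6 and 0 to 2 for the difference. With the replicate block they were 9 and 10, 10 and 11, 6 and 20, 4 and 16, and 3 and 2. Whether the numbers pair libraries is not stated, and correlations did not show it. Same-numbered libraries correlated at r from -0.149 to 0.252 (median 0.0157, 18 pairs). Differently numbered ones ranged from -0.175 to 0.240 (median 0.000651, 36 pairs). Of the 12 libraries, 4 correlated best with their own number. Weak correlations of deviations from means of 3 libraries cannot exclude pairing. The fit of only the compared libraries was not run for the difference, which needs all 12. Depth limits PXYLP1, EXTL1, NDST2, HS3ST3A1 and HS3ST3B1, which had 4 to 143 counts a library.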
